A study of Mus musculus with 26 samples.

Results

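Epidermal kallikreins are secreted serine proteases that cut the protein bridges between the outermost dead cells of the skin, so that these cells can be shed. They are made as inactive precursors and activate each other in a cascade, in which KLK5 can activate itself and KLK7. The inhibitor LEKTI, encoded by *Spink5*, holds KLK5, KLK7 and KLK14 in check, and inherited loss of this inhibitor in humans causes Netherton syndrome, a disease with severe peeling of the skin. The genes described here are the 9 kallikrein genes *Klk5*, *Klk6*, *Klk7*, *Klk8*, *Klk9*, *Klk10*, *Klk11*, *Klk13* and *Klk14*, together with *Spink5*. They were taken by symbol and are 10 of the 56738 gene symbols counted. Genes were tested where the normalized count averaged over 10 in the 26 libraries, which held for 16893 genes and for 9 of these 10. *Klk14* fell under the filter with a mean normalized count of 8.83.

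RNA was sequenced from primary keratinocytes of C57BL/6NJ mice aged 2 days, 5 of them wild type (WT) and 8 of them deficient in *Pla2g4d* (KO), the gene of a cytosolic phospholipase A2. The KO line carries a CRISPR-Cas9 deletion that includes exon 3 of *Pla2g4d* and was bred to homozygosity, and wells of the same animal were pooled. The cells were grown for 4 days in medium with 0.06 mM CaCl2 and then kept under basal conditions or given the inflammatory cytokines IL17A and TNFα, at 20 ng/ml each, for 24 h. Each mouse gave a library of both kinds, and the resulting 26 libraries form the groups WT basal, WT with cytokines, KO basal and KO with cytokines. Neither the sex nor the litter of the mice was given, and all KO mice belong to a single mutant line, so line and genotype cannot be told apart. Replicates are mice, and p-values measure the spread between libraries of a group. Unless the mouse is named as a block, they come from a fit that does not pair both libraries of a mouse.

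Total counts lay between 42072745 and 78102858 per library. *Pla2g4d* itself was counted at 1.22 to 4.63 CPM (its count relative to the library size, scaled by TMM) in WT basal and at 1.15 to 2.98 CPM in KO basal cells, and at 28.6 to 65.2 CPM in WT and 29.2 to 59.2 CPM in KO cells with cytokines. Counts are given per gene and do not check the loss of the exon. The keratinocyte markers *Krt5*, *Krt14*, *Trp63*, *Itga6* and *Cdh1* summed to 37268 to 41714 CPM in WT basal and 30069 to 32449 CPM in WT libraries with cytokines. In KO cells the sums were 36602 to 43145 and 30342 to 31841 CPM. With cytokines *Krt5* and *Krt14* had log2 fold changes of -0.31 and -0.46 in WT and -0.31 and -0.45 in KO cells. Their adjusted p was at most 9.64e-06 (edgeR), with folds under 1.5. Markers of fibroblasts summed to 1.69 to 7.43 CPM, those of endothelial cells to 1.37 to 5.96 CPM and those of immune cells to 18.3 to 54.1 CPM, with the Langerhans cell gene *Cd207* at 0 in every library. Melanocyte markers summed to 298 to 619 CPM, and with cytokines 1 of 5 was called lower in WT and 3 of 5 in KO cells. Of the other markers that passed the filter, both endothelial genes (*Kdr* and *Pecam1*) were called higher and 1 of 5 fibroblast genes (*Col1a2*) lower with cytokines in both genotypes, and 1 of 2 immune genes (*Cd68*) higher in WT. *Pecam1* was also called higher in KO than in WT basal cells. The part of these markers in the results was not tested, and shares of all genes called are given with the members below. In bulk RNA, fewer cells that express a gene and less RNA of that gene per cell cannot be told apart.

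The 9 kallikrein genes lie side by side on the plus strand of chromosome 7 of GRCm39, between 43339842 and 43500605, a stretch of 160.8 kb. Their order from the lowest coordinate is *Klk14*, *Klk13*, *Klk11*, *Klk10*, *Klk9*, *Klk8*, *Klk7*, *Klk6* and *Klk5*. Neighbours in the cluster moved in opposite directions with cytokines, as described later, and the 250 bases before the annotated start of 4 of these genes are shown for that reason. *Klk13* had the largest fall, *Klk8* and *Klk9* lie next to each other and had positive changes, and *Klk7*, the next gene after *Klk8*, had negative ones. The sequences were read from GRCm39 on the plus strand, at chr7:43361562-43361811 for *Klk13*, chr7:43441065-43441314 for *Klk9*, chr7:43446719-43446968 for *Klk8* and chr7:43460468-43460717 for *Klk7*. Capitals mark words of the motifs searched.
Klk13: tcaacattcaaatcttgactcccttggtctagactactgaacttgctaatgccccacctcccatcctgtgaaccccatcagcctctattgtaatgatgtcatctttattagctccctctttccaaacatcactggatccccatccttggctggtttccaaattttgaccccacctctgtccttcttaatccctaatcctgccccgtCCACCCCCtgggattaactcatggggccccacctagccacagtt
Klk9: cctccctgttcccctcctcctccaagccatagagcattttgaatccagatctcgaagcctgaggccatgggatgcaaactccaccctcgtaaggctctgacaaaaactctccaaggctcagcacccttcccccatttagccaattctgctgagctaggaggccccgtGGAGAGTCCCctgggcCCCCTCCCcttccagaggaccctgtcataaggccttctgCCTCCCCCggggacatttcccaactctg
Klk8: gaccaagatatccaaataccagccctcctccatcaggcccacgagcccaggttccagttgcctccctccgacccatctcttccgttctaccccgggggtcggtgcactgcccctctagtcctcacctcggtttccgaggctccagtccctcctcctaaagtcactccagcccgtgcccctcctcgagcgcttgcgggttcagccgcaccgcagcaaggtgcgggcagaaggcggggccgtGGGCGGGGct
Klk7: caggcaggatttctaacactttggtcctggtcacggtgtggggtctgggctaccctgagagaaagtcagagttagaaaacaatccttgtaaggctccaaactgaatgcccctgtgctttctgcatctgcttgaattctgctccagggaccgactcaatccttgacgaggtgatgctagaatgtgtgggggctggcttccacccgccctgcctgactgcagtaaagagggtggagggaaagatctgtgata
Capitals in the *Klk13*, *Klk8* and *Klk9* windows mark the KLF word CCNCNCCC on either strand, and in *Klk9* also a word of the NF-kB motif, which begins 83 bases before the start. The KLF word stood in 7 of the 10 windows, against 48.8% of the windows of 21751 protein-coding genes. NF-kB words stood in those of *Klk9*, *Klk10* and *Klk11* (7.62% of all windows), and the AP-1 word TGANTCA in none of the 10 (6.17% of all windows). The C/EBP word TTGCNNAA stood in the *Klk11* window only (9.34% of all windows), while the GRHL word AACCNGTT (1.79%) and the word TATAAA (11.9%) stood in that of *Spink5* only. These are matches of letters on both strands in a short window, and none of the 6 motifs stood before *Klk7*.

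*Spink5* lies outside the cluster, on the plus strand of chromosome 18 of GRCm39 from 44096302 to 44155568. Per length of their exons, *Klk7* and *Spink5* were the most abundant of the 10 genes in every group. In WT basal cells the median level was 240.2 CPM per kb for *Klk7* and 145.1 CPM per kb for *Spink5*, and with cytokines it was 182.1 CPM per kb for *Klk7* and 195.2 CPM per kb for *Spink5*. Their ranges overlapped in all 4 groups, so their order is not resolved. *Klk8* came next, at 31.0 CPM per kb in WT basal and 51.1 CPM per kb in WT cells with cytokines. In WT basal cells its range overlapped with that of *Klk5* (29.1 CPM per kb), and that of *Klk5* with *Klk6* (25.4 CPM per kb), while with cytokines *Klk8* stood above all members other than *Klk7* and *Spink5* in both genotypes. *Klk13* and *Klk14* were lowest in every group, with medians of at most 0.737 and 0.178 CPM per kb.

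**Figure D1:**
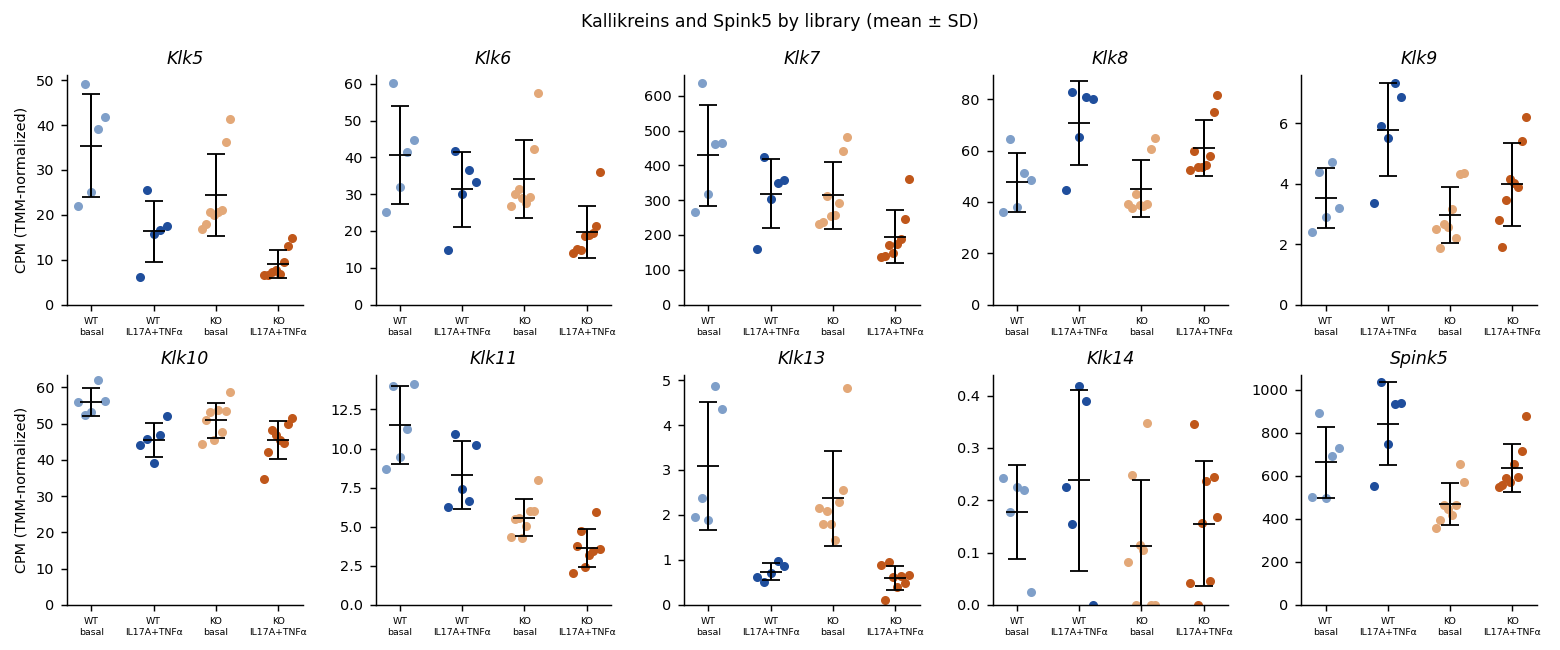
Expression of the 10 genes in CPM (linear axis from 0) for the 26 libraries, with 1 point per library and the mean ± SD per group (n = 5 for WT, n = 8 for KO; an SD that reaches below 0 is not shown beyond the axis). *Klk13* libraries with cytokines lie below all basal ones in both genotypes, and *Klk11* libraries of KO cells lie below all WT ones of the same condition.

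The first question was how the cytokines changed these genes in WT and in KO cells. *Klk5* and *Klk13* fell in both genotypes, *Klk6*, *Klk7* and *Klk11* passed the test as lower in KO cells, and *Klk9* passed it as higher in WT cells. The quasi-likelihood test of edgeR was used, with p adjusted by Benjamini-Hochberg over the 16893 genes, and a gene was called changed where this adjusted p was under 0.1 and its fold over 1.5. In WT cells 1 of the 9 tested members was called higher and 2 were called lower, where 8.65% of all genes tested were called higher and 5.26% lower. In KO cells 0 members were called higher and 5 lower, where 6.33% of all genes were called higher and 4.55% lower. *Klk8* and *Spink5* had higher levels with an unadjusted p under 0.05 in KO cells, but with folds under 1.5, and DESeq2 also called 5 members there. Without the fold threshold, 5 of 9 members in WT and 8 of 9 in KO cells had an adjusted p under 0.1, against 36.8% and 35.8% of all genes. The median log2 fold change of the 9 members was -0.38 in WT and -0.61 in KO cells, beside 0.01 and 0.00 over all genes tested.

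Both libraries of a mouse come from cells of the same animal. With the mouse as a block all 9 tested members had an adjusted p under 0.1 in WT and in KO cells, against 40.9% and 39.3% of all genes. Within mice the direction was the same almost throughout. *Klk5*, *Klk6*, *Klk7*, *Klk11* and *Klk13* were lower with cytokines in 5 of 5 WT and 8 of 8 KO mice, and *Klk10* in 5 of 5 WT and 7 of 8 KO mice. *Klk8*, *Klk9* and *Spink5* were higher in 5 of 5 WT and 8 of 8 KO mice.

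**Figure D2:**
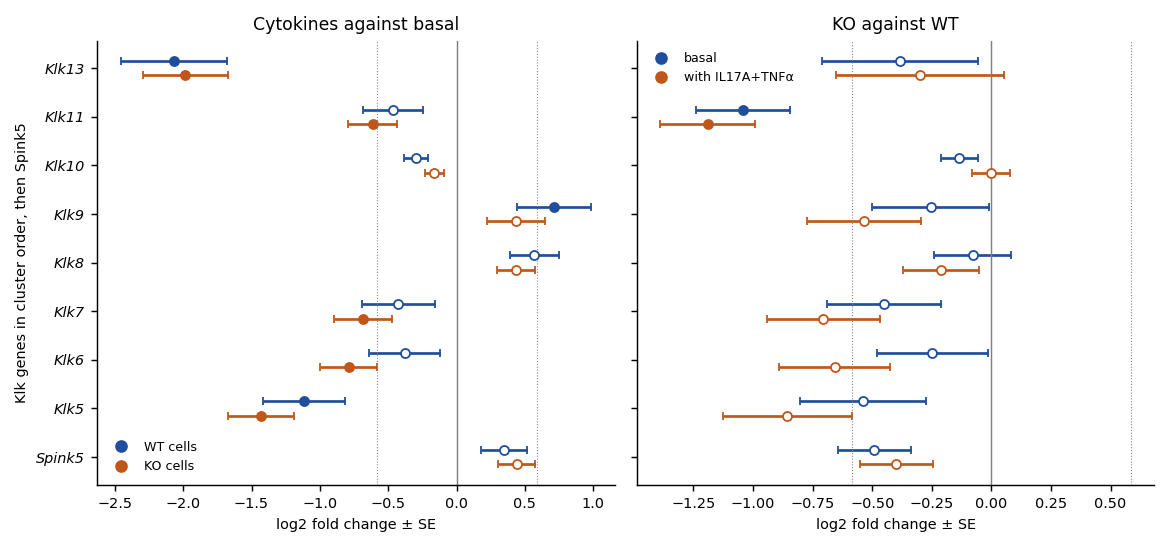
Log2 fold changes ± SE of the 9 tested genes from edgeR, for cytokines against basal in each genotype and for KO against WT in each condition, with filled points for genes called and open points for the others. *Klk5* and *Klk13* are filled for cytokines in both genotypes, and *Klk11* is the only gene filled for KO against WT in both conditions.

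*Klk5* encodes the trypsin-like protease at the head of the cascade. It stood at 21.9, 49.1, 25.1, 39.0 and 41.7 CPM in the WT basal libraries of replicates 1 to 5, and at 6.23, 25.5, 15.8, 16.6 and 17.6 CPM in those with cytokines. In KO cells it ranged from 16.8 to 41.4 CPM under basal conditions (median 20.7) and from 6.55 to 14.8 CPM with cytokines (median 7.55). Replicate 2 was highest among WT libraries in both conditions, and its treated library lay above the lowest basal one, whereas KO basal and treated libraries did not overlap. The log2 fold change was -1.11 in WT (SE 0.30, adjusted p = 0.00485, edgeR) and -1.43 in KO cells (SE 0.24, adjusted p = 2.66e-05).

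*Klk7* encodes the chymotrypsin-like protease that KLK5 activates, and *Klk14* a trypsin-like protease that acts with both. *Klk7* stood at 265, 636, 318, 461 and 464 CPM in WT basal libraries and at 158, 425, 303, 350 and 358 CPM in WT libraries with cytokines. In KO cells its range was 232 to 482 CPM (median 275) under basal conditions and 136 to 360 CPM (median 174) with cytokines. Basal and treated libraries overlapped in both genotypes, and replicate 1 was the lowest WT library in both. Its log2 fold change was -0.43 in WT (SE 0.27, adjusted p = 0.248) and -0.68 in KO cells (SE 0.21, adjusted p = 0.0143), where it passed the fold threshold. With the mouse as a block the adjusted p in WT was 6.16e-05, still with a fold under 1.5. *Klk14* was counted at 0 to 21 reads per library, with 5 of 26 libraries at 0, each of which allows up to 3 reads or at most 0.0709 CPM, for counting error only. WT basal libraries had 14, 9, 14, 14 and 1 reads and those with cytokines 16, 11, 21, 18 and 0, and a change of *Klk14* was not detectable at this depth. Without the filter its log2 fold change was 0.40 in WT (SE 1.02, adjusted p = 0.932) and 0.49 in KO cells (SE 0.82, adjusted p = 0.799).

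*Klk13*, a trypsin-like kallikrein, had the largest change of the 9 tested genes in size in both genotypes. It stood at 1.94, 2.37, 1.88, 4.88 and 4.35 CPM in WT basal libraries and at 0.621, 0.508, 0.716, 0.975 and 0.867 CPM in WT libraries with cytokines. KO cells ranged from 1.44 to 4.82 CPM (median 2.12) under basal conditions and from 0.102 to 0.953 CPM (median 0.639) with cytokines. No treated library reached the lowest basal one in either genotype. In log2 terms the change was -2.07 in WT (SE 0.39, adjusted p = 0.000101) and -1.99 in KO cells (SE 0.31, adjusted p = 7.75e-06). The treated libraries rest on 36 to 48 reads in WT and 5 to 44 reads in KO cells.

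*Klk6* and *Klk11* encode further trypsin-like kallikreins. *Klk6* stood at 25.2, 60.2, 31.9, 41.4 and 44.8 CPM in WT basal libraries and at 14.8, 41.9, 30.0, 36.5 and 33.3 CPM with cytokines, and in KO cells it ranged from 26.8 to 57.6 CPM (median 29.7) and from 14.1 to 36.1 CPM (median 18.8). The conditions overlapped in both genotypes, in KO cells because replicate 8 with cytokines lay above the lowest basal libraries. The log2 fold change of *Klk6* was -0.38 in WT (SE 0.26, adjusted p = 0.296) and -0.79 in KO cells (SE 0.21, adjusted p = 0.00401). With the mouse as a block *Klk6* had an adjusted p of 0.00163 in WT, with a fold under 1.5. For *Klk11* the log2 fold change was -0.47 in WT (SE 0.22, adjusted p = 0.115, with the mouse as a block 0.0126) and -0.61 in KO cells (SE 0.18, adjusted p = 0.00939). The call for *Klk11* in KO cells rests on its fold of 1.53, which fell under 1.5 without KO replicate 1 or without KO replicate 8, with a log2 fold change closest to 0 of -0.52.

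*Klk8* (neuropsin) and *Klk9* went the other way. *Klk8*, a trypsin-like protease of the upper epidermis, stood at 36.1, 64.7, 37.9, 51.2 and 48.7 CPM in WT basal libraries and at 44.5, 83.0, 65.3, 80.8 and 80.3 CPM with cytokines. In KO cells its range was 37.6 to 64.8 CPM (median 39.2) under basal conditions and 52.4 to 81.7 CPM (median 56.2) with cytokines. Of the treated libraries, 4 of 5 in WT and 2 of 8 in KO cells lay above all basal ones. The log2 fold change was 0.57 in WT (SE 0.18, adjusted p = 0.0152) and 0.43 in KO cells (SE 0.14, adjusted p = 0.0198), both under the fold threshold, which *Klk8* passed in WT without WT replicate 1 or without WT replicate 2.

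*Klk9* stood at 2.40, 4.39, 2.90, 4.72 and 3.19 CPM in WT basal libraries and at 3.35, 5.89, 5.51, 7.33 and 6.86 CPM with cytokines, with 1.88 to 4.34 CPM (median 2.61) and 1.89 to 6.22 CPM (median 3.96) in KO cells. In WT, 4 of 5 treated libraries lay above all basal ones, and in KO cells 2 of 8. The log2 fold change of *Klk9* was 0.72 in WT (SE 0.27, adjusted p = 0.0438) and 0.43 in KO cells (SE 0.22, adjusted p = 0.136, with the mouse as a block 0.0132). The call in WT was lost without WT replicate 3 (adjusted p = 0.120) and without WT replicate 5 (adjusted p = 0.163). Of the 1476 bp of *Klk9* exons, 1010 bp also lie in exons of the gene *2310002F09Rik* on the other strand, as do 457 bp of *Klk8*, 202 bp of *Klk11* and 287 bp of *Klk14*. That gene stood at 3.94 to 6.55 CPM in WT basal and 4.84 to 9.06 CPM in WT libraries with cytokines, and at 3.58 to 5.63 and 5.19 to 7.45 CPM in KO cells. The libraries were strand-specific, but the strand setting of the counting is not given in the sources used here, and the part of these reads in the values of *Klk9* was not tested.

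*Klk10*, a kallikrein with little known protease activity, changed least. It stood at 55.9, 52.3, 53.3, 62.1 and 56.1 CPM in WT basal libraries and at 44.1, 45.7, 39.1, 47.0 and 52.0 CPM with cytokines, without overlap. In KO cells its range was 44.3 to 58.8 CPM (median 52.2) under basal conditions and 34.8 to 51.6 CPM (median 46.2) with cytokines, and the conditions overlapped. The fitted log2 fold change was -0.30 in WT (SE 0.09, adjusted p = 0.0100) and -0.16 in KO cells (SE 0.07, adjusted p = 0.0760), with folds of 1.23 and 1.12 under the threshold. In KO cells the adjusted p passed 0.1 without KO replicate 2, 3 or 5, up to 0.164. Its spread between mice was also the smallest, with a coefficient of variation of 6.82% in WT basal libraries, beside 21.8% to 50.3% for the other 9 genes.

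*Spink5*, the inhibitor gene, had higher levels with cytokines, while *Klk5* and *Klk7* had lower ones. It stood at 501, 892, 496, 694 and 729 CPM in WT basal libraries and at 552, 1036, 750, 934 and 940 CPM with cytokines, and in KO cells it ranged from 356 to 654 CPM (median 454) and from 550 to 879 CPM (median 592). Of the treated libraries, 3 of 5 in WT and 3 of 8 in KO cells lay above all basal ones. The log2 fold change was 0.35 in WT (SE 0.17, adjusted p = 0.132, with the mouse as a block 0.000313) and 0.44 in KO cells (SE 0.14, adjusted p = 0.0135), with folds of 1.27 and 1.36 under the threshold.

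**Figure D3:**
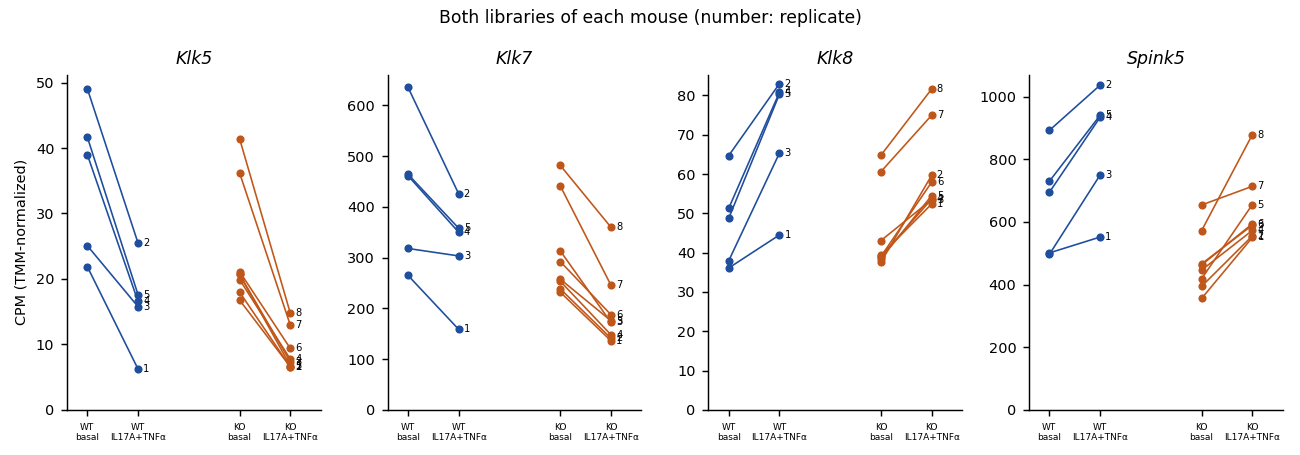
CPM of *Klk5*, *Klk7*, *Klk8* and *Spink5* in both libraries of each mouse (linear axis from 0), with a line joining the basal library to the one with cytokines and the replicate number beside the points. *Klk5* and *Klk7* go down and *Klk8* and *Spink5* go up in 5 of 5 WT and 8 of 8 KO mice.

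Set against each other within a library, the reads of *Klk5* and of *Klk7* moved apart from those of *Spink5*. The counts of *Spink5* per count of *Klk5* were 19.1 in WT basal and 55.2 in WT cells with cytokines, and 20.0 and 73.4 in KO cells (from mean log2 ratios of -4.26 ± 0.16, -5.79 ± 0.42, -4.32 ± 0.24 and -6.20 ± 0.28, SD). For *Klk7* they were 1.58 and 2.71 in WT cells and 1.53 and 3.40 in KO cells (mean log2 ratios of -0.66 ± 0.16, -1.44 ± 0.21, -0.61 ± 0.17 and -1.76 ± 0.25, SD). Basal and treated libraries did not overlap in either ratio in either genotype, and both ratios fell in all 13 mice. The ratio of *Klk14*, the other protease named as a target of the inhibitor, rests on at most 21 reads per library and was lower with cytokines in 3 of 5 WT mice (mean log2 change -0.32 ± 0.77, SD) and in 4 of 8 KO mice (0.29 ± 2.11). Within mice the log2 ratio of *Klk7* to *Spink5* changed by -0.88 to -0.66 in WT and by -1.40 to -0.97 in KO mice, and the difference between the genotypes was not tested. These are ratios of reads, not of molecules or of protein, since gene length was not corrected for, and the same length enters every library.

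**Figure D4:**
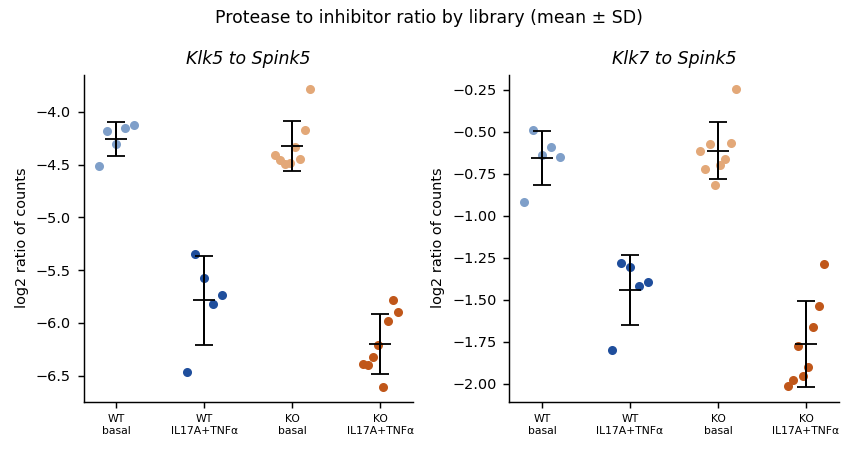
Log2 ratio of *Klk5* and of *Klk7* counts to *Spink5* counts in each library, with 1 point per library and the mean ± SD per group (n = 5 for WT, n = 8 for KO). In both panels the libraries with cytokines lie below all basal libraries of the same genotype.

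The next question was whether loss of *Pla2g4d* changed these genes. *Klk11*, a trypsin-like kallikrein, was lower in KO cells in both conditions, and it was the only one of the 9 tested members called in either. Under basal conditions 1 member was called lower, where 1.07% of all genes tested were, and with cytokines 1 member was called lower, where 0.556% were. Without the fold threshold *Spink5* joined it under basal conditions, where 13.6% of all genes passed. All 9 log2 fold changes were negative in both conditions, with a median of -0.38 under basal conditions and -0.54 with cytokines, beside 0.00 and -0.01 over all genes. The 9 genes were measured in the same mice and varied together, as described later, so their signs are not separate results. *Klk10* with cytokines had only -0.0031 (SE 0.08).

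*Klk11* stood at 8.68, 14.0, 9.45, 11.2 and 14.1 CPM in WT basal libraries and at 4.25 to 8.00 CPM (median 5.52) in the 8 KO basal libraries. With cytokines it stood at 6.24, 11.0, 7.42, 6.65 and 10.2 CPM in WT and at 2.02 to 5.93 CPM (median 3.49) in KO cells. Every KO library lay below every WT library of the same condition. The change on the log2 scale was -1.04 under basal conditions (SE 0.20, adjusted p = 0.000676, edgeR) and -1.19 with cytokines (SE 0.20, adjusted p = 0.00450), falls of 2.06-fold and 2.28-fold. With each of the 13 mice left out in turn, the adjusted p stayed at or under 0.00442 and 0.0219, respectively.

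*Spink5* was lower in KO basal cells by a log2 fold change of -0.49 (SE 0.15, adjusted p = 0.0394), a fold of 1.41, with 6 of 8 KO libraries below all WT ones. Its adjusted p passed 0.1 without WT replicate 2 or without WT replicate 5, up to 0.174. With cytokines the log2 fold change of *Spink5* was -0.40 (SE 0.15, adjusted p = 0.195). *Klk5*, *Klk6* and *Klk7* had log2 fold changes of -0.54, -0.25 and -0.45 under basal conditions (adjusted p = 0.228, 0.587 and 0.272) and of -0.86, -0.66 and -0.71 with cytokines (adjusted p = 0.112, 0.160 and 0.137). The number called changed with the mice included. With cytokines 5 members were called without WT replicate 1, the WT mouse with the lowest levels, 4 without KO replicate 8, the KO mouse with the highest, and 2 without KO replicate 7. Under basal conditions 3 were called without WT replicate 1 and 2 without KO replicate 8. Leaving out the lowest WT or the highest KO mouse moves the group means apart, and shares of all genes called are not given for these fits. With another mouse left out, the adjusted p with cytokines rose to as much as 0.348 for *Klk5*, 0.373 for *Klk6* and 0.328 for *Klk7* (edgeR).

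*Klk8*, *Klk9*, *Klk10* and *Klk13* had log2 fold changes between genotypes of -0.08, -0.26, -0.13 and -0.38 under basal conditions, with adjusted p of at least 0.332. With cytokines they were -0.21, -0.54, -0.0031 and -0.30, with adjusted p of at least 0.277. The sign for *Klk8* under basal conditions and for *Klk10* with cytokines turned under some of the settings tried.

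The interaction asked whether the cytokine response differed between genotypes. It was called in 0 of the 9 tested members, where 0.219% of all genes were called in either direction. No member had an unadjusted p under 0.05 in edgeR without the mouse as a block, and DESeq2 and limma also called 0. The 95% interval of the difference in log2 response, KO minus WT, ran from -1.10 to 0.46 for *Klk5*, from -0.95 to 0.44 for *Klk7*, from -0.73 to 0.44 for *Klk11* and from -0.35 to 0.54 for *Spink5*. These intervals come from the fit without the mouse as a block. With the mouse as a block, 1 member passed an adjusted p under 0.1, where 2.8% of all genes did. This was *Klk6*, with a difference of -0.41 (SE 0.12, adjusted p = 0.0919) and a fold under 1.5. For *Klk7* the difference with the block was -0.27 (SE 0.09, adjusted p = 0.171), and for *Klk5* -0.25 (SE 0.14, adjusted p = 0.483).

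The members also varied together between mice of the same group. Over the 26 libraries, after subtracting each group's mean log2 CPM, 36 of 36 pairs of the 9 tested genes had a positive Pearson correlation, between 0.09 and 0.96 with a median of 0.62. *Klk5* and *Klk7* gave the highest, 0.96. The libraries share mice in pairs and share scaling within a library, so these values are a description. The mean deviation of the 9 genes was -0.45 and -0.64 in the basal and treated libraries of WT replicate 1, 0.39 and 0.34 in those of KO replicate 7 and 0.63 and 0.55 in those of KO replicate 8. Each of these mice thus deviated to the same side in both of its libraries.

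The genes outside the set whose deviations were most like the members' mean were *Calm4*, *Gsdma*, *Il36rn*, *Egr3* and *Eps8l1*, each with a correlation of 0.96 over the 26 libraries. Among the 10 differentiation markers the correlation with the members' mean ran from 0.61 for *Krt10* to 0.96 for *Calm4*. It was 0.65 for *Tgm3*, 0.71 for *Ivl*, 0.76 for *Krt1*, 0.93 for *Lor* (loricrin) and 0.93 for *Sbsn*. For *Krt14* and *Krt5*, the keratins of basal keratinocytes, it was 0.03 and -0.57. The other keratinocyte markers had -0.22 (*Trp63*), -0.18 (*Itga6*) and 0.55 (*Cdh1*).

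**Figure D5:**
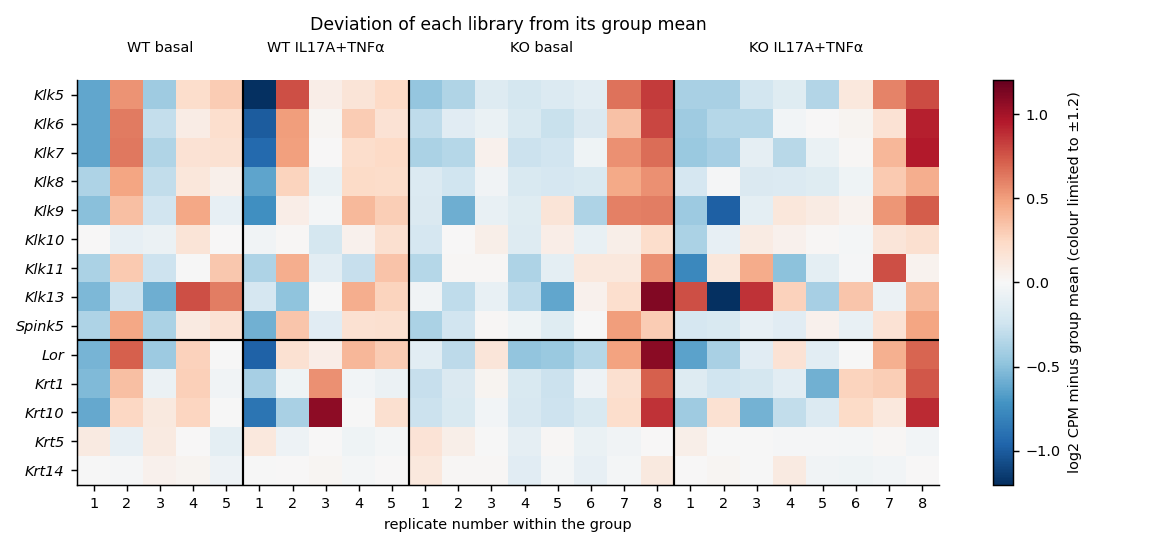
Deviation of each library from its group mean (log2 CPM, colour limited to ±1.2) for the 9 tested genes above the line and for markers of differentiation and basal keratinocytes below it, with libraries in columns by group and replicate. The columns of WT replicate 1 are low and those of KO replicate 8 high for most members in both conditions.

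The summed level of the 10 differentiation markers was 3526 to 6540 CPM in WT basal and 1140 to 2194 CPM in WT libraries with cytokines, and 2893 to 6079 CPM and 1013 to 1898 CPM in KO cells. *Krt1* and *Krt10*, keratins of the layers above the basal one, made up much of this difference, with means of 1522 and 914 CPM in WT basal cells and 75.0 and 28.7 CPM with cytokines. Cytokines lowered 6 of the 10 markers in WT and in KO cells, namely *Calml3*, *Ivl*, *Krt1*, *Krt10*, *Krtdap* and *Lor*, with medians over the 10 of -0.86 and -0.96. Of all genes tested, 5.26% in WT and 4.55% in KO cells were called lower, with medians of 0.01 and 0.00. *Tgm1*, the gene of transglutaminase 1, had 0.25 in WT (adjusted p = 0.215) and 0.40 in KO cells (adjusted p = 0.00880, with a fold under 1.5), and *Calm4* had 0.01 in WT (adjusted p = 0.978). Between genotypes, *Krt1* and *Tgm3* were called lower in KO cells under basal conditions, and 7 of 10 with cytokines. The shares of all genes called lower there were 1.07% and 0.556%. The part of differentiation in the levels of the kallikreins was not tested.

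Genes of the cell bridges and the cornified layer, with the antimicrobial peptide gene *Camp*, were examined as a list of 8. All but *Camp*, or 7 genes, passed the filter. Whether kallikreins cut each of these proteins was not tested. Cytokines lowered 5 of the 7 in each genotype, where 5.26% of all genes tested were called lower in WT and 4.55% in KO cells. The 5 were *Dsg1a* and *Dsc1*, cadherins of the cell bridges, and *Flg*, *Flg2* and *Hrnr*, of the filaggrin family. Their log2 fold changes ran from -3.63 for *Dsg1a* to -1.17 for *Hrnr* in WT (adjusted p = 3.08e-13 and 0.000896), and from -3.89 to -1.41 in KO cells (adjusted p = 5.30e-16 and 4.47e-06). *Cdsn*, the gene of corneodesmosin, was not called, with 0.13 in WT and -0.12 in KO cells (adjusted p = 0.737 and 0.691). The related cadherin gene *Dsg1b* was not called either, with -0.43 in WT and -0.41 in KO cells (adjusted p = 0.0520 and 0.0180), both folds under 1.5. Its mean in WT cells was 186 CPM under basal conditions and 138 CPM with cytokines, beside 292 and 23.6 CPM for *Dsg1a*. Between genotypes *Dsc1*, *Dsg1a* and *Hrnr* were called lower in KO cells under basal conditions, at log2 fold changes of -0.74, -0.82 and -0.63 (adjusted p = 0.0335, 0.00362 and 0.0865). With cytokines these and *Flg2* were called lower, with *Dsg1a* at -1.08 (adjusted p = 0.00838). The list's median was -1.51 with cytokines in WT and -1.79 in KO cells, beside 0.01 and 0.00 over all genes tested.

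A list of 18 genes held other proteases, among them a caspase and cathepsins, and a receptor, and is wider than the kallikrein cascade. Of these genes, 16 passed the filter. In WT cells 8 were called higher and 2 lower with cytokines, and in KO cells 5 higher and 2 lower, with medians of 0.51 and 0.36. Of all genes tested, 8.65% were called higher and 5.26% lower in WT, and 6.33% and 4.55% in KO cells. *Prss22*, a tryptase-like serine protease, rose by a log2 fold change of 2.34 in WT (adjusted p = 4.04e-13) and 2.02 in KO cells (adjusted p = 2.61e-14), and *Tmprss11d*, a transmembrane serine protease, by 2.69 (adjusted p = 8.11e-05) and 2.96 (adjusted p = 7.44e-07). *St14*, the gene of matriptase, rose by 0.59 in WT (adjusted p = 1.32e-09), with a fold just over the threshold, and had 0.51 in KO cells (adjusted p = 1.70e-10), under it. *Casp14*, a caspase of cornification, fell by 0.83 in WT (adjusted p = 0.00213) and fell by 1.07 in KO cells (adjusted p = 5.44e-06). *F2rl1*, the gene of the protease-activated receptor 2 that kallikreins can cleave, had 0.39 in WT (adjusted p = 6.24e-06) and 0.14 in KO cells (adjusted p = 0.0215), under the fold threshold. Between genotypes, *Prss22* was called higher in KO basal cells and *Tmprss4* lower in KO cells with cytokines.

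Of 15 other protease inhibitor genes, 11 passed the filter, and in each genotype 4 were called higher and 3 lower with cytokines. The shares over all genes tested were 8.65% higher and 5.26% lower in WT, and 6.33% and 4.55% in KO cells. *Slpi*, the secretory leukocyte protease inhibitor, rose by a log2 fold change of 3.86 in WT (adjusted p = 2.78e-16) and 3.44 in KO cells (adjusted p = 7.53e-18). *Serpina3n*, *Csta1* and *Spink12* were also called higher. *Serpina12*, the gene of vaspin, a serpin, fell by 2.63 in WT (adjusted p = 6.47e-06) and fell by 3.54 in KO cells (adjusted p = 2.04e-09), and *Cst6*, a cystatin of the epidermis, had -0.85 (adjusted p = 0.00560) and -1.48 (adjusted p = 3.08e-07), with *Wfdc5* called lower as well. The list's median was 0.58 in WT and 0.38 in KO cells, beside 0.01 and 0.00 over all genes tested. *Serpina12* and *Cst6* were also called lower in KO than in WT cells with cytokines, at -1.41 (adjusted p = 0.0608) and -0.89 (adjusted p = 0.0329), and *Serpina3n* higher in KO basal cells at 1.57 (adjusted p = 0.00208).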

How the data were processed

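Bulk RNA-seq libraries (TruSeq stranded, paired reads) were prepared from WT and KO keratinocytes. The authors aligned the reads to mm39 with STAR 2.7.10b and deposited raw counts per gene from featureCounts 2.0.6, together with log2 values of the counts divided by a DESeq2 size factor. The deposited counts were used for the tests and the deposited log2 values only for an alternative. Genes with a mean normalized count over 10 were fitted with edgeR 4.0.16 in R 4.3.3 (TMM, 4 groups, 26 libraries) with Benjamini-Hochberg adjustment, with a prior count of 1 for log2 CPM. Calls used the thresholds of the study on adjusted p (0.1) and on the fold (1.5). Alternatives were DESeq2 1.42.0, its size factors in edgeR, limma 3.58.1, no filter, filterByExpr, only the groups compared, no fold threshold, the mouse as a block and each of 13 mice left out. The block was a term per mouse in edgeR for the cytokine comparisons and the interaction. For KO against WT it was the correlation between libraries of a mouse (0.143) in limma on the counts. The script was tested on simulated data.

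The labels give both libraries of a mouse the same number, and both come from the same animal. Correlations between them, after subtracting group means, ran from 0.00051 to 0.25 (median 0.11), and genes that mark sex were alike in both libraries of 13 of 13 mice. Replicate libraries all differed beyond sampling noise (chi-square over its degrees of freedom at least 7.27). At these depths counting error is small for genes over 1 CPM and limits *Klk13* with cytokines and *Klk14*.

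The 10 members were named by symbol. They and the lists were chosen with earlier results of these data known. Up to 4 genes per list and comparison were to be named, by the smallest adjusted p, and further ones were named after their values were seen. Positions and exon lengths are from GENCODE on GRCm39, the same assembly as mm39, in a later release than the authors counted with.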

Additional observations from a re-analysis of the deposited data

Results flagged for a closer look

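Of the 40 sets formed by 10 genes in 4 groups, 4 held a library whose log2 CPM lay apart from the rest of its group. This was judged by Dixon's test at the 95% level, where chance gives about 1 in 20. The log2 scale widens gaps between values near 0, and the levels below are given in CPM. *Klk6* stood at 36.1 CPM in KO replicate 8 with cytokines, above 21.4 CPM in the next library. *Klk13* stood at 0.102 CPM in KO replicate 2 with cytokines, from 5 reads, below 0.388 CPM in the nearest. *Klk14* stood at 0.0236 CPM in the basal library of WT replicate 5, from 1 read, with the nearest at 0.178 CPM, and at 0 CPM in its library with cytokines, with the nearest at 0.155 CPM. Both *Klk14* values come from the same mouse.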

How the results depend on the processing

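Without the fold threshold, 5 members were called for cytokines in WT, 8 in KO cells and 2 for KO against WT under basal conditions. The shares of all genes tested were 36.8%, 35.8% and 13.6%. For KO against WT with cytokines, 2 members were called without the filter on low counts and 2 with only the groups compared, the second being *Klk5* at -0.85 in both (adjusted p = 0.0926 and 0.0859). With each mouse left out, the counts ran from 2 to 4 for cytokines in WT, from 4 to 5 in KO cells, from 1 to 3 for KO against WT under basal conditions, from 1 to 5 with cytokines, and stayed at 0 for the interaction. Shares of all genes called are not given for fits with a mouse left out, without the filter or with only the groups compared. The directions of single genes turned for *Klk8* between genotypes under basal conditions (-0.17 to 0.056 over mice left out) and for *Klk10* with cytokines (0.0015 with filterByExpr, 0.0018 with only the groups compared, -0.053 to 0.049 over mice left out). For the interaction of *Klk13* they turned with limma (-0.11), with the replicate block (-0.044) and over mice left out (-0.067 to 0.30). All of these had adjusted p over 0.1, and the cause was not tested. With the mouse as a block, to which the pairing belongs, 3, 5, 1, 1 and 0 members were called in the 5 comparisons, as without it. Of all genes tested, 14.6%, 11.2%, 3.15%, 0.687% and 0.474% were called in either direction with the block. For KO against WT the block was fitted with limma, so the method differs there as well. The other settings turned no direction. *Klk13* and *Klk14* are limited by depth.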

Other observations

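The other kallikrein genes were examined as a list of 17, of which 13 had 0 reads in every library and 2 had at most 4 reads in any library. The remaining genes, *Klk4* and *Klk12*, passed the filter. *Klk4*, the protease of tooth enamel maturation, had 10, 10, 0, 9 and 1 reads in WT basal libraries and 4, 54, 35, 28 and 25 reads in WT libraries with cytokines, with 0 to 26 and 0 to 18 reads in KO cells. It was called higher with cytokines in WT, at a log2 fold change of 2.23 (SE 0.90, adjusted p = 0.0616, edgeR), although replicate 1 had fewer reads with cytokines than without. In KO cells its log2 fold change was -0.16 (SE 0.73, adjusted p = 0.908), and *Klk12* was called in neither genotype.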
